A study of Homo sapiens with 40 samples.

Results

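Purine and pyrimidine synthesis enzymes were the subject, taken as 10 genes named by symbol: CAD, DHODH and UMPS of the pyrimidine route, PPAT, GART, PFAS, PAICS, ADSL and ATIC of the purine route, and IMPDH2 of the branch to GTP. All 10 were among the 28278 gene symbols of the count table, and all 10 were among the 16739 genes with enough counts to be tested. Their mRNA was counted in 40 libraries of HEK293T, a human embryonic kidney cell line.

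The 10 groups of 4 libraries came from 5 lines under 2 conditions, antimycin A at 40 nM or vehicle, each for 6 hours. The lines were cells given an SLC25A12 guide (sgSLC25A12, called KO here) with SLC25A12-F137S and dMTS-DELE1 (dMTS-DELE1 cells), KO cells with SLC25A12-F137S (F137S cells), cells labelled as KO with SLC25A12-WT, KO cells with vector (KO-vector cells), and wild-type cells with vector (WT-vector cells). SLC25A12 encodes a carrier that exports aspartate from mitochondria in exchange for glutamate, and DELE1 a protein that relays mitochondrial stress to the kinase HRI. The sample titles call the 4 libraries of a group biological replicates. The labels do not say whether a line was 1 clone, which promoter drove a transgene, or what separated 1 replicate from the next. So p-values measure the spread between these libraries, and how much of it is technical is not known.

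Cells build pyrimidines by first making the ring and then joining it to ribose phosphate. CAD carries out the opening steps and takes up aspartate, DHODH oxidises dihydroorotate in the inner mitochondrial membrane and passes the electrons to ubiquinone, and UMPS completes UMP. Purines are built on ribose phosphate from the start, in an order that begins with PPAT and runs through GART, PFAS, PAICS, ADSL and ATIC to IMP; PAICS joins aspartate to the intermediate and ADSL then releases fumarate from it. Antimycin A blocks respiratory complex III, downstream of the ubiquinol that DHODH produces, and the carrier encoded by SLC25A12 supplies cytosolic aspartate, so both interventions touch a known input of these pathways.

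PPAT and PAICS lie head to head on chromosome 4 and are transcribed away from each other. In GENCODE v29 (hg38) PPAT occupies chr4:56393362-56435615, minus strand, and PAICS chr4:56435741-56464579, plus strand, which leaves 125 bases between the starts. Those bases (chr4:56435616-56435740, plus strand, RefSeq promoter table of GRCh38.p14) are shown because PPAT fell with antimycin while PAICS did not pass; capitals mark GGGCGG, the GC box core:
PPAT-PAICS: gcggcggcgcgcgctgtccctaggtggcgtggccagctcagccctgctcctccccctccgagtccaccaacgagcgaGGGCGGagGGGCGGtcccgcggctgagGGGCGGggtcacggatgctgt

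Promoter windows of 250 bases before to 50 after the RefSeq start matched 8 of the 10 genes by symbol, all but ADSL and IMPDH2. CACGTG, the E-box core that MYC with MAX and other factors can bind, was in 4 of the 8 (DHODH, PPAT, PAICS and ATIC), against 7.26% of 35116 windows in the table. PPAT and PAICS share 1 such site, so the 4 windows are not independent. The sites are shown with the core in capitals, each on its gene's strand, at chr16:72008577-72008598, chr4:56435784-56435805 (and the same site read on the plus strand for PAICS, ending where its window ends), chr2:215312005-215312026 and chr2:215312080-215312101:
DHODH: ctactgcgCACGTGcacccaac
PPAT: gagatttcCACGTGcagcaaat
PAICS: atttgctgCACGTGgaaa
ATIC, upstream site: cggcgggcCACGTGataagccc
ATIC, downstream site: tacctgcgCACGTGgtgccgcc

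TGACGTCA, the cAMP response element, was in the UMPS window alone among the 8 (1.85% of all windows). It is shown in capitals at chr3:124730397-124730420, plus strand:
UMPS: ttcgcgggTGACGTCAtcggggcg

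GGGCGG on either strand was in 6 of the 8 windows (45.0% of all windows). TGATGNAA, the core of the element bound by ATF4 with CEBP factors, was in 0 of the 8 (3.62% of all windows), which says only that those letters are not in these windows. All 4 motifs were searched on both strands, and a match is a description of letters, not of binding.

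Library totals ran from 30730335 to 31965438 counts. SLC25A12 stood at 3716 ± 25.7 CPM (counts scaled to a common library total, mean ± SD, n = 4) in dMTS-DELE1 cells, 1852 ± 18.3 in F137S cells, 38.9 ± 0.330 in libraries labelled KO plus SLC25A12-WT, 3.08 ± 0.231 in KO-vector cells and 38.7 ± 1.82 in WT-vector cells, all in vehicle. The labelled libraries thus held the WT-vector level. Libraries were also compared by chi-square per degree of freedom over genes with a mean count of at least 20. The labelled libraries differed from WT-vector libraries by 3.04 to 4.78 in vehicle, a range like the 3.03 to 6.13 between replicates. From KO-vector libraries they differed by 27 to 28.7. They are called the labelled libraries throughout, after their label of KO plus SLC25A12-WT, and no rescue is read from them. Of 12 kidney markers, UMOD had 0 counts in every library, while PAX8, CDH16, AQP2 and SLC34A1 had at most 4 counts in any. WT1 was at 8.4 to 17.6 CPM, LRP2 at 3.02 to 11.5 CPM and PAX2 at 1.81 to 3.91 CPM. In these bulk libraries, fewer cells with a transcript and less of it per cell cannot be told apart.

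Per kilobase of exon, the 10 mRNAs spanned a wide range of levels. IMPDH2 was the most abundant, at 172.5 to 233.0 CPM per kb over the 10 group means, and DHODH the least, at 3.66 to 4.70. Below IMPDH2 came PAICS (84.4 to 110.1), ATIC (63.1 to 78.1), CAD (41.3 to 52.7), GART (40.0 to 44.9), PPAT (31.6 to 40.0), ADSL (29 to 32.7), PFAS (20.4 to 33.8) and UMPS (11.9 to 16.3). The order was the same in all 10 groups except for ADSL and PFAS: PFAS was above ADSL in the labelled and WT-vector libraries and below it in the other 3 lines. The lowest count behind any value was 728, for DHODH, and the lowest for any other gene was 2742, for UMPS.

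Antimycin moved the pathway in both directions, by small amounts. CAD and IMPDH2 rose in all 5 lines, by 7.2% to 15.3%. UMPS, PPAT, PFAS, ADSL and ATIC fell in all 5 lines, with changes of -13.7% to -4.5%. DHODH fell in 3 lines, and GART and PAICS passed the test in none. A gene is said to rise or fall where edgeR's quasi-likelihood test had an adjusted p below 0.05 (Benjamini-Hochberg, over all tested genes). By that rule 2 members rose and 5 fell in dMTS-DELE1 cells (of all tested genes 34.9% called, 17.6% higher and 17.3% lower). In F137S cells 2 rose and 6 fell (51.2% called, 26.3% higher and 24.9% lower), and in the labelled libraries likewise 2 and 6 (52.3% called, 25.9% higher and 26.4% lower). In KO-vector cells 2 rose and 5 fell (51% called, 26.4% higher and 24.7% lower), and in WT-vector cells 2 rose and 6 fell (51.9% called, 25.5% higher and 26.4% lower). The median log2 fold change of the 10 ran from -0.042 in dMTS-DELE1 cells to -0.12 in WT-vector cells, beside 0.013 and 0.0097 for all tested genes.

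The pyrimidine genes did not move together. CAD (chr2:27217390-27243943, plus strand), the enzyme that opens the route, had 442, 445, 453 and 432 CPM in the 4 antimycin libraries of WT-vector cells, against 407, 407, 412 and 413 in vehicle. No antimycin library overlapped the vehicle libraries. The log2 fold change was 0.11 ± 0.021 (± SE, n = 4 per group, adjusted p = 2.67e-06). In the other lines it was 0.10 ± 0.021 (dMTS-DELE1), 0.14 ± 0.021 (F137S), 0.12 ± 0.021 (labelled libraries) and 0.15 ± 0.021 (KO vector). CAD rose in each of them.

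DHODH (chr16:72008588-72027664, plus strand), the ubiquinone-linked step, had 26.5, 29.2, 29.2 and 28.1 CPM with antimycin in WT-vector cells, against 30.9, 31.2, 33.1 and 34.9 in vehicle. The groups did not overlap, and DHODH fell by 13.1% (log2 fold change -0.20 ± 0.052, adjusted p = 0.000622). In dMTS-DELE1 cells it had 26.6, 26.5, 25.3 and 27.7 CPM with antimycin, against 22.9, 26.8, 24.8 and 26.7 in vehicle. There the groups overlapped and the log2 fold change was 0.067 ± 0.053 (adjusted p = 0.351). DHODH also fell in F137S cells (-0.13 ± 0.052, adjusted p = 0.0355) and in the labelled libraries (-0.13 ± 0.052, adjusted p = 0.0242), while KO-vector cells gave -0.070 ± 0.052 (adjusted p = 0.267). The 2 calls were lost in 5 of 8 fits each when 1 library of the pair of groups was left out: in F137S cells without vehicle replicate 2, 3 or 4 or antimycin replicate 1 or 4, down to -0.076 (adjusted p = 0.265), and in the labelled libraries without vehicle replicate 2 or 3 or antimycin replicate 1, 3 or 4, down to -0.082 (adjusted p = 0.221). The DHODH call of WT-vector cells did not depend on any 1 library.

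UMPS (chr3:124730366-124749273, plus strand), which makes UMP, had 111, 110.0, 106 and 106 CPM with antimycin in WT-vector cells, against 119.8, 127, 127 and 121 in vehicle. Every antimycin library was below every vehicle library. It fell in each line, with changes of -13.1% in dMTS-DELE1 cells (-0.20 ± 0.030), -11.7% in F137S cells (-0.18 ± 0.029), -9.9% in the labelled libraries (-0.15 ± 0.029), -11.2% in KO-vector cells (-0.17 ± 0.029) and -12.4% in WT-vector cells (-0.19 ± 0.029).

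**Figure D1:**
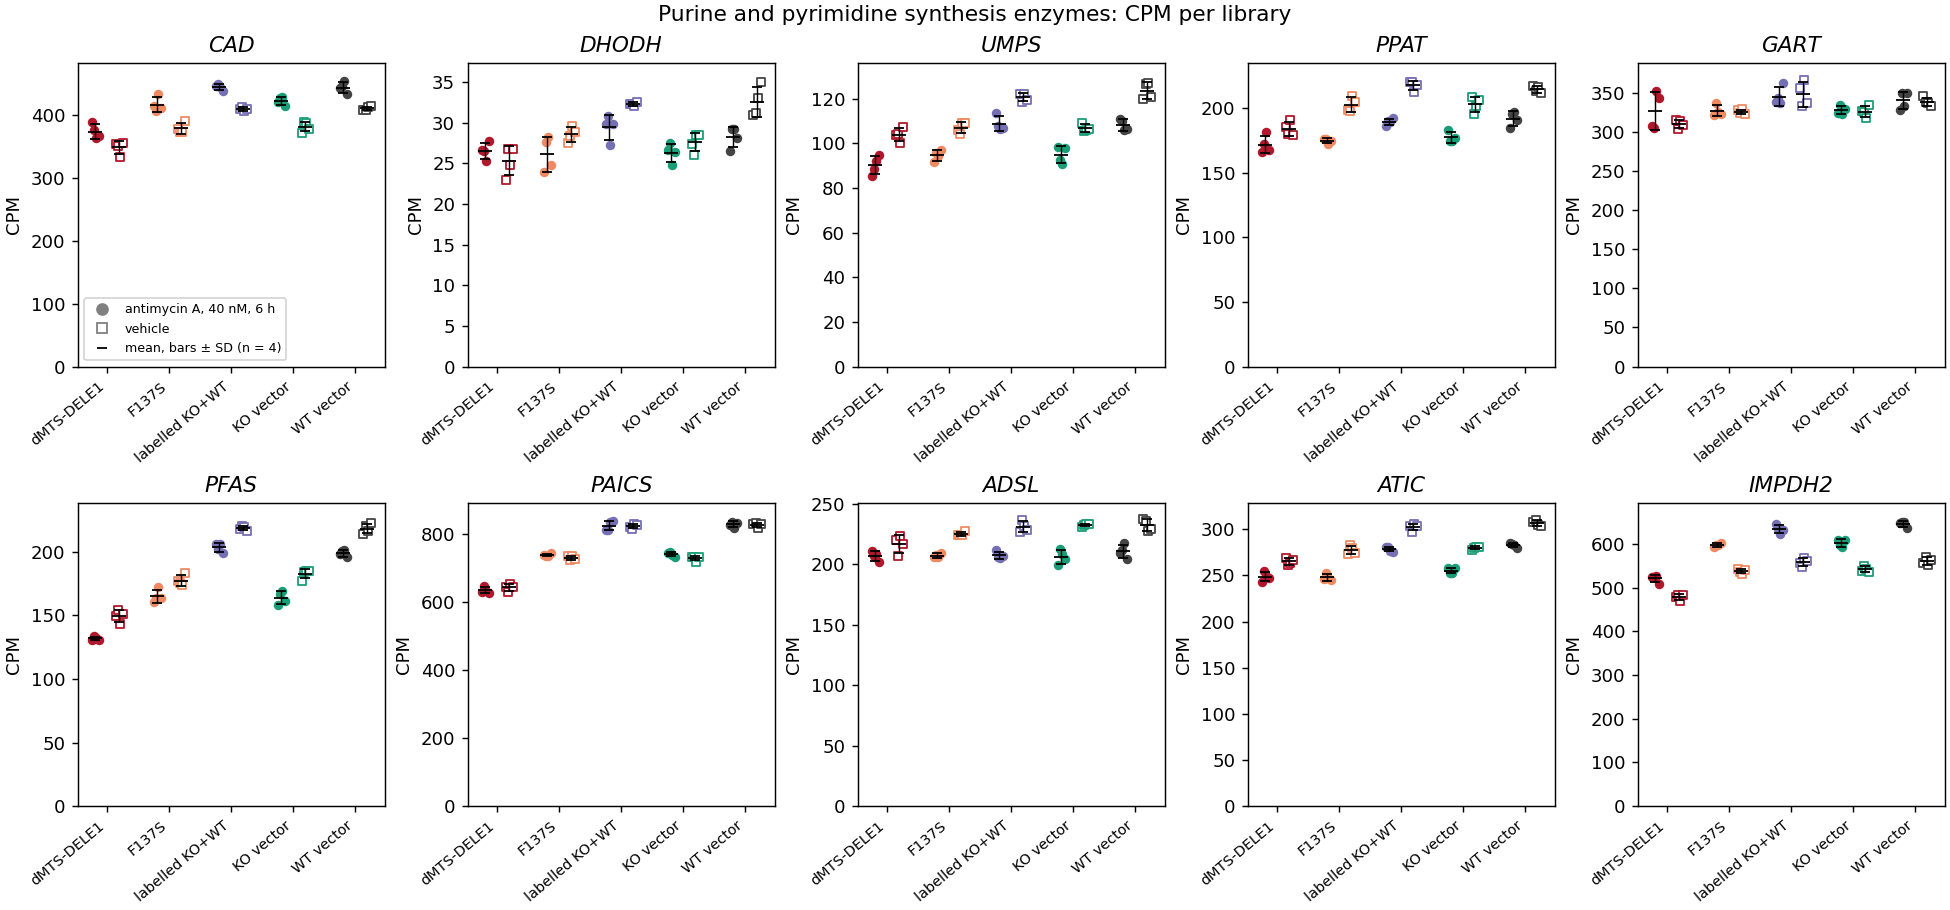
CPM of each gene in every library (y axis, from 0), by line (x axis), with antimycin A (filled circles) left of vehicle (open squares); black bars are the mean ± SD of 4 libraries. CAD and IMPDH2 sit higher with antimycin in every line, and PFAS stands lowest in dMTS-DELE1 cells, at 131.8 CPM with antimycin and 149.3 in vehicle.

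On the purine route, the first enzyme fell. PPAT, which commits ribose phosphate to purines, had 184, 195, 197 and 191 CPM with antimycin in WT-vector cells, against 217, 213, 216 and 211 in vehicle. The groups did not overlap (log2 fold change -0.16 ± 0.025, adjusted p = 4.39e-08). In KO-vector cells PPAT had 183, 174, 174 and 177 CPM with antimycin, against 209, 195, 202 and 206 in vehicle (-0.20 ± 0.025). F137S cells gave -0.21 ± 0.025 and dMTS-DELE1 cells -0.099 ± 0.025, where antimycin and vehicle libraries overlapped.

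PFAS (chr17:8247618-8270491, plus strand), which adds a nitrogen from glutamine, had 198, 201, 201 and 196 CPM with antimycin in WT-vector cells, against 214, 219.9, 216 and 223 in vehicle, with no overlap. Its log2 fold changes were -0.18 ± 0.024 in dMTS-DELE1, -0.10 ± 0.024 in F137S, -0.10 ± 0.024 in labelled libraries, -0.16 ± 0.024 in KO-vector and -0.13 ± 0.024 in WT-vector cells, and it fell in each. ADSL (chr22:40346500-40390463, plus strand), which acts at 2 points of purine synthesis, fell in every line too, with changes of -4.5% in dMTS-DELE1, -7.9% in F137S, -10.3% in labelled, -11.3% in KO-vector and -9.2% in WT-vector cells. The ADSL value of dMTS-DELE1 cells (-0.066 ± 0.022, adjusted p = 0.0153) did not pass without vehicle replicate 3 (adjusted p = 0.107). ATIC (chr2:215311817-215349773, plus strand), which closes the ring to IMP, had 286, 285, 283 and 280.2 CPM with antimycin in WT-vector cells, against 308, 309.9, 305 and 304 in vehicle. It fell with changes of -10.7% to -6.3% over the 5 lines, the least in dMTS-DELE1 and the most in F137S cells.

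GART and PAICS lie between those steps and did not pass. GART (chr21:33503931-33543491, minus strand), an enzyme of 3 reactions, had log2 fold changes of 0.076 ± 0.034 in dMTS-DELE1 cells (adjusted p = 0.0862) and 0.0081 ± 0.034 in WT-vector cells (adjusted p = 0.864). In dMTS-DELE1 cells its antimycin libraries split into 307, 304, 352 and 343 CPM, against 315, 303, 313 and 308 in vehicle, a wider spread than in any other group. Without antimycin replicate 1 or 2 of that line the GART value passed, at 0.10 (adjusted p = 0.017) and 0.099 (adjusted p = 0.0144), and DESeq2 called it as well (adjusted p = 0.0497). PAICS had 827, 836, 816 and 832 CPM with antimycin in WT-vector cells, against 827, 831, 818 and 829 in vehicle, and overlapped fully. Its log2 fold change lay between -0.019 and 0.024 in the 5 lines, with a standard error of 0.016, each within 2 standard errors of 0.

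IMPDH2 (chr3:49024325-49029408, minus strand), the rate-limiting enzyme of GTP synthesis from IMP, moved the other way. It had 648, 649.6, 650.0 and 637 CPM with antimycin in WT-vector cells, against 556, 571, 551 and 564 in vehicle. No libraries overlapped in any line. It rose by 9.0% in dMTS-DELE1 cells (0.12 ± 0.017), 11.1% in F137S cells (0.15 ± 0.017), 13.3% in the labelled libraries (0.18 ± 0.017), 11.1% in KO-vector cells (0.15 ± 0.017) and 15.3% in WT-vector cells (0.21 ± 0.017, adjusted p = 3.38e-18). Counting genes whose antimycin and vehicle libraries did not overlap gave 5 of 10 members in dMTS-DELE1 cells (29.7% of all tested genes), 7 in F137S cells (43.5%), 8 in the labelled libraries (46.4%), 7 in KO-vector cells (45.2%) and 8 in WT-vector cells (46.4%).

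**Figure D2:**
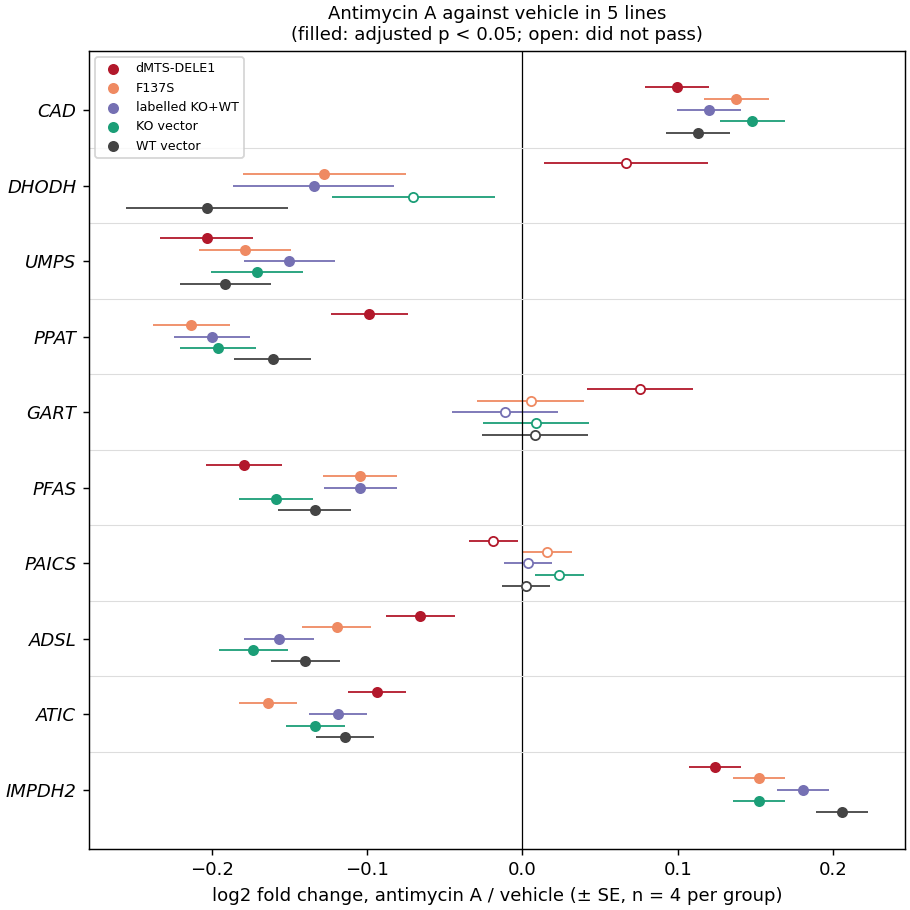
Log2 fold change of antimycin A over vehicle (x axis, ± SE) for each gene (y axis) in the 5 lines; filled points passed an adjusted p of 0.05 and open points did not. CAD and IMPDH2 lie right of 0 and UMPS, PPAT, PFAS, ADSL and ATIC left of it in all 5 lines, while PAICS stays within -0.019 and 0.024.

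KO-vector cells held lower levels than WT-vector cells for most members of both routes. Loss of SLC25A12 cannot be told apart here from other differences between these lines. In vehicle, 8 of 10 members were lower in KO-vector than in WT-vector cells (25.6% of all tested genes were lower and 48.3% were called in either direction) and 0 were higher (22.7%). The differences were of -16.2% to -3.3%, and the median log2 fold change was -0.12, against -0.0085 for all tested genes. Under antimycin 7 were lower (24.5% lower, 23.5% higher and 48% called of all tested genes). Counting libraries without overlap gave 8 members in vehicle (42.9% of all tested genes) and 7 under antimycin (42.7%). The summed level of 5 neuronal markers, a type of gene HEK293T cells are known to express, moved with the same groups: it was 203 to 228 CPM in KO-vector libraries and 314 to 381 CPM in WT-vector libraries, all 5 being tested and none at 0. That sum may rest largely on NEFM, which ranged from 50.8 to 235 CPM over all 40 libraries, against 45.1 to 85.8 for NEFL. It is not read as a shift of all 5 markers. The 12 kidney markers summed to 19.5 to 23.4 CPM in KO-vector and 26.3 to 31.1 CPM in WT-vector libraries, with UMOD at 0. The kidney sum may rest largely on WT1 and LRP2. The part of either list in the result was not tested.

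PFAS differed most. Its vehicle libraries held 177, 184, 185 and 185 CPM in KO-vector cells, against 214, 219.9, 216 and 223 in WT-vector cells. All 4 KO-vector libraries were below all 4 WT-vector libraries (log2 fold change -0.26 ± 0.024, adjusted p = 1.44e-15). Under antimycin the difference was -0.28 ± 0.024. PAICS, the aspartate-using step, held 732, 733, 718 and 731 CPM in KO-vector cells, against 827, 831, 818 and 829 in WT-vector cells. The groups were well apart, by -0.18 ± 0.016 in vehicle (adjusted p = 3.66e-17) and -0.16 ± 0.016 under antimycin. So PAICS, which did not pass under antimycin in any line, differed between the lines, and PFAS differed in both contrasts.

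All 3 pyrimidine genes were lower in vehicle. DHODH held 27.4, 26.1, 28.4 and 28.5 CPM in KO-vector cells, against 30.9, 31.2, 33.1 and 34.9 in WT-vector cells (-0.24 ± 0.052, adjusted p = 7.98e-05). Under antimycin its difference was -0.10 ± 0.052 (adjusted p = 0.0955), which did not pass in the fit over all libraries but did without WT-vector antimycin replicate 1 (-0.15, adjusted p = 0.0265) or KO-vector antimycin replicate 2 (-0.14, adjusted p = 0.0392). UMPS held 109, 106, 106 and 107 CPM in KO-vector cells, against 119.8, 127, 127 and 121 in WT-vector cells, and was lower, with log2 fold changes of -0.21 ± 0.029 in vehicle and -0.19 ± 0.029 under antimycin. CAD was lower, by log2 fold changes of -0.10 ± 0.021 in vehicle and -0.069 ± 0.021 under antimycin. Its KO-vector libraries did not overlap its WT-vector libraries in either condition.

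ATIC was lower, at -0.13 ± 0.019 in vehicle and -0.15 ± 0.019 under antimycin, and so was PPAT, at -0.079 ± 0.025 in vehicle and -0.11 ± 0.025 under antimycin. IMPDH2 was lower, at -0.048 ± 0.017 in vehicle (adjusted p = 0.0138) and -0.10 ± 0.017 under antimycin (adjusted p = 3.18e-07). The vehicle call for IMPDH2 was lost without the labelled libraries in the fit (-0.032, adjusted p = 0.12), without the filter on low counts (-0.031, adjusted p = 0.224) and without WT-vector vehicle replicate 2 (adjusted p = 0.0667). ADSL and GART did not pass. ADSL held 231, 232, 234 and 233 CPM in KO-vector cells, against 237, 236, 228 and 229 in WT-vector cells, a log2 fold change of 0.0006 ± 0.022, and GART differed by -0.053 ± 0.034 in vehicle (adjusted p = 0.212) and -0.053 ± 0.034 under antimycin (adjusted p = 0.213). Fitted on the compared groups alone, GART passed in vehicle (adjusted p = 0.0424) and under antimycin (adjusted p = 0.0253), and ADSL passed under antimycin without WT-vector replicate 4 (adjusted p = 0.0368) or KO-vector replicate 2 (adjusted p = 0.0359).

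The labelled libraries stood where WT-vector libraries stood. Against WT-vector cells 0 of 10 members were called by edgeR in vehicle (0 at an unadjusted p below 0.05 and 0 by DESeq2, with 0% of all tested genes called) and 0 under antimycin (again 0 and 0, with 0.00597%). Against KO-vector cells 9 were higher in vehicle (25.3% of all tested genes higher, 22.6% lower, 47.8% called) and 8 under antimycin (24.7% higher, 23.5% lower, 48.2% called). The vehicle calls for GART (adjusted p = 0.0639 to 0.105) and IMPDH2 (adjusted p = 0.053 to 0.0853) were each lost in 3 of 8 fits with 1 library left out. The GART call was also lost with no filter (adjusted p = 0.0985), and that for IMPDH2 with no filter (adjusted p = 0.332), with DESeq2-type size factors (adjusted p = 0.0863) and in a fit of the compared groups alone (adjusted p = 0.0698). PFAS held 218, 220.4, 219 and 217 CPM in these libraries in vehicle, against 214, 219.9, 216 and 223 in WT-vector cells, so all 4 lay inside the range of WT-vector libraries.

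No member was shown to differ between F137S and KO-vector cells. By edgeR 0 of 10 members were called in vehicle (0.0836% of all tested genes), with ADSL the 1 gene at an unadjusted p below 0.05, and 0 under antimycin (0.114%), with ATIC the 1 such gene. DESeq2 called 0 in both conditions. The log2 fold changes ran from -0.046 to 0.048 in vehicle and from -0.043 to 0.010 under antimycin, with standard errors of 0.016 to 0.053. PFAS held 177, 175, 174 and 184 CPM in F137S cells in vehicle, against 177, 184, 185 and 185 in KO-vector cells, which overlap. PAICS held 735, 724, 734 and 725 CPM in F137S cells, against 732, 733, 718 and 731 in KO-vector cells. Both genes thus lay below their WT-vector ranges of 214 to 223 and 818 to 831 CPM in F137S cells. SLC25A12 mRNA was far above the WT-vector level in these cells, and the function of the F137S carrier was not measured.

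dMTS-DELE1 cells were lower again in vehicle, and for fewer members under antimycin. Against F137S cells, 8 of 10 members were lower in vehicle (24.1% of all tested genes lower, 41.8% called), 0 were higher (17.7%), and the median log2 fold change was -0.13, beside -0.021 for all tested genes. Under antimycin 5 were lower (28.8% lower, 25.5% higher, 54.3% called), and the median was -0.047, beside -0.017. DELE1 itself stood at 5344 ± 84.7 CPM in dMTS-DELE1 cells and 45.9 ± 2.15 CPM in F137S cells in vehicle. SLC25A12 mRNA was higher in dMTS-DELE1 cells too (log2 fold change 1.00 ± 0.019 in vehicle). The added dMTS-DELE1 cannot be told apart here from this and other differences between the lines. The members without overlap numbered 9 in vehicle (35.2% of all tested genes) and 4 under antimycin (46%). The kidney markers summed to 14.1 to 20.7 CPM in dMTS-DELE1 and 20.6 to 23.8 CPM in F137S libraries, and the neuronal markers to 202 to 224 CPM in dMTS-DELE1 and 207 to 232 CPM in F137S libraries. Their part in the result was not tested.

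PFAS and PAICS again led. PFAS held 131, 134, 132 and 131 CPM in dMTS-DELE1 cells with antimycin, against 161, 164, 172 and 163 in F137S cells. On the log2 scale this was the widest gap of any member in the pairs of groups compared, a fall of 20.1% (log2 fold change -0.32 ± 0.024, adjusted p = 7.55e-20), and in vehicle the value was -0.25 ± 0.024. PAICS held 629, 648, 633 and 627 CPM in dMTS-DELE1 cells with antimycin, against 737, 735, 736 and 743 in F137S cells. No libraries overlapped (-0.22 ± 0.016 with antimycin, -0.18 ± 0.016 in vehicle).

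IMPDH2 and CAD followed the same order of lines. IMPDH2 held 478, 482, 469 and 483 CPM in dMTS-DELE1 cells in vehicle, against 542, 535, 532 and 541 in F137S cells (-0.17 ± 0.017), and differed by -0.20 ± 0.017 under antimycin. CAD held 353, 349.8, 333 and 355 CPM in dMTS-DELE1 cells in vehicle, against 377, 373, 372 and 390.2 in F137S cells (-0.12 ± 0.021), and differed by -0.16 ± 0.021 under antimycin. Both genes thus rose with antimycin from a lower vehicle level in dMTS-DELE1 cells.

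PPAT, DHODH, ATIC and ADSL differed in vehicle but did not pass under antimycin. PPAT held 185, 179, 191 and 179 CPM in dMTS-DELE1 cells in vehicle, against 198, 198, 209 and 205 in F137S cells (-0.14 ± 0.025). Under antimycin the 2 lines overlapped (-0.026 ± 0.025, adjusted p = 0.4). DHODH differed by -0.17 ± 0.052 in vehicle, which did not pass without dMTS-DELE1 vehicle replicate 1 (-0.11, adjusted p = 0.114), and by 0.021 ± 0.052 under antimycin. ATIC differed by -0.066 ± 0.019 in vehicle and 0.0039 ± 0.019 under antimycin. The vehicle call for ATIC was lost in a fit of the compared groups alone (adjusted p = 0.107) and without F137S vehicle replicate 2 (adjusted p = 0.147) or 3 (adjusted p = 0.0642).

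ADSL differed by -0.055 ± 0.022 in vehicle (adjusted p = 0.0399), a call close to the threshold that was lost with DESeq2 (adjusted p = 0.0771), in a fit of the compared groups alone (adjusted p = 0.299) and without any 1 library of the pair other than dMTS-DELE1 vehicle replicate 3 (adjusted p = 0.0546 to 0.36). The ADSL vehicle call was also lost with DESeq2-type size factors (adjusted p = 0.0937), without the labelled libraries (adjusted p = 0.0697) and with counts halved (adjusted p = 0.0675). Under antimycin ADSL gave -0.0010 ± 0.022. UMPS was the reverse case, with -0.044 ± 0.029 in vehicle (adjusted p = 0.236) and -0.069 ± 0.030 under antimycin (adjusted p = 0.0442). That UMPS call was lost with DESeq2 (adjusted p = 0.138), in a fit of the compared groups alone (adjusted p = 0.167) and without F137S antimycin replicate 2, 3 or 4 or dMTS-DELE1 antimycin replicate 1 or 2 (adjusted p = 0.0511 to 0.215). It was lost too with DESeq2-type size factors (adjusted p = 0.117), no filter (adjusted p = 0.115), no labelled libraries (adjusted p = 0.117) and counts halved (adjusted p = 0.0596). GART differed by -0.070 ± 0.034 in vehicle (adjusted p = 0.101) and by 0.0001 ± 0.034 under antimycin.

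**Figure D3:**
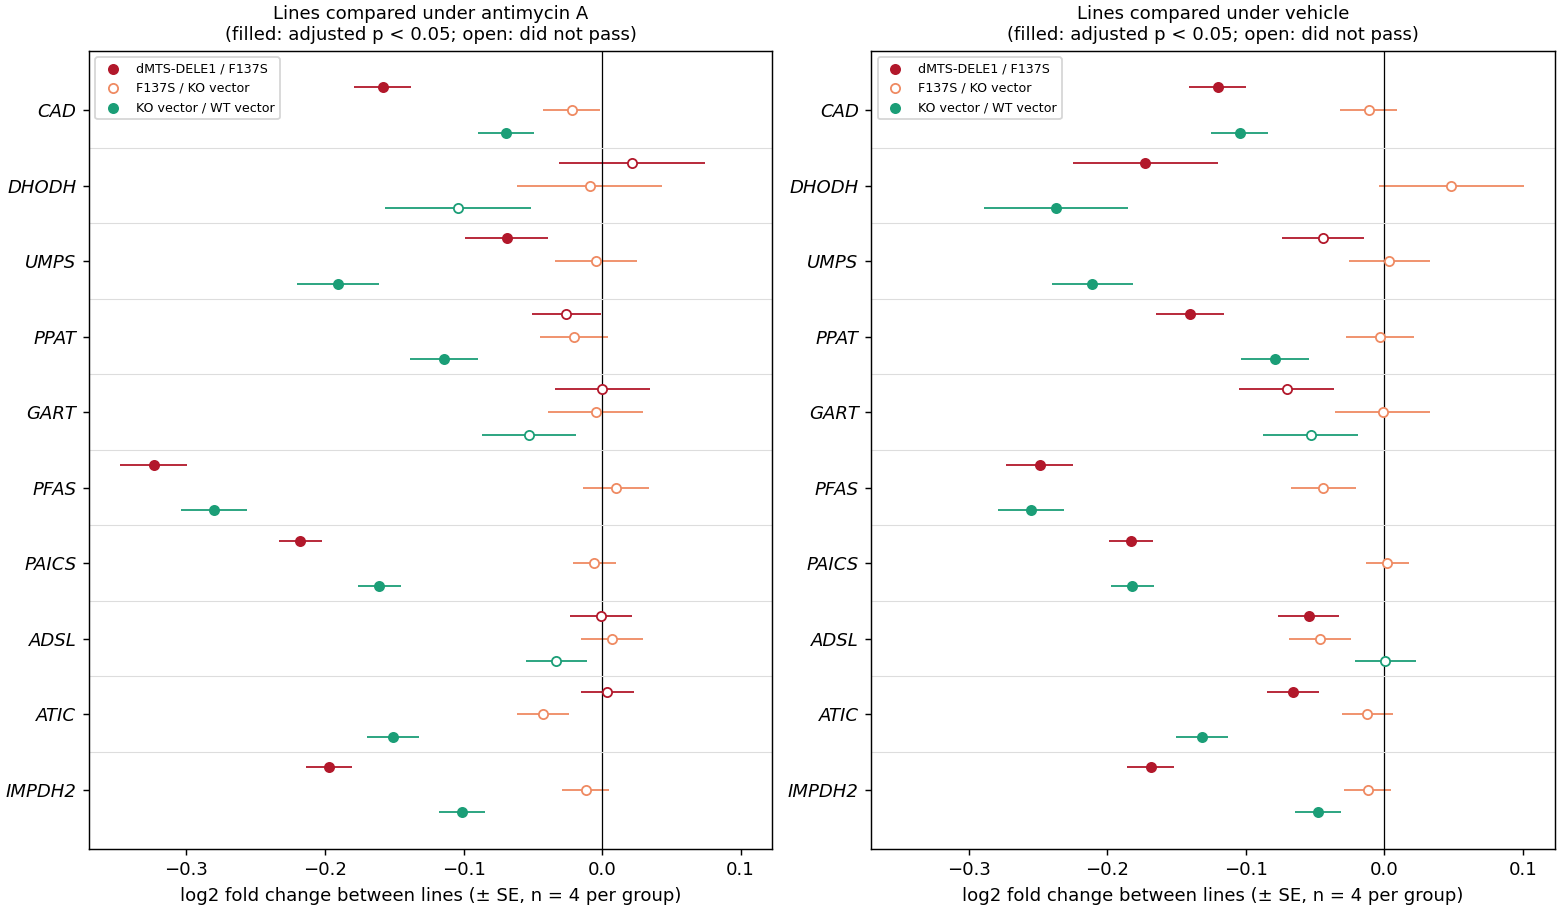
Log2 fold change between lines (x axis, ± SE) for each gene (y axis), under antimycin A (left) and vehicle (right); filled points passed an adjusted p of 0.05 and open points did not. PFAS lies furthest left in the dMTS-DELE1 over F137S and the KO-vector over WT-vector contrasts in both conditions, while all F137S over KO-vector points lie between -0.046 and 0.048.

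Across lines the response to antimycin was called different for only 1 member. In its contrast that count is near the share of all tested genes, and the call was not stable. Between dMTS-DELE1 and F137S cells 1 of 10 was called, PPAT (11.9% of all tested genes, 8.24% higher and 3.7% lower), with a difference of responses of 0.11 ± 0.035 (adjusted p = 0.0194). PPAT fell by 6.6% with antimycin in dMTS-DELE1 cells and by 13.7% in F137S cells. The call was lost in a fit of the compared groups alone (0.096, adjusted p = 0.121) and without any of 11 of the 16 single libraries, namely F137S vehicle replicates 3 and 4, F137S antimycin replicates 1 to 4, dMTS-DELE1 vehicle replicates 1, 2 and 4 and dMTS-DELE1 antimycin replicates 2 and 3 (adjusted p = 0.052 to 0.228). DHODH had the largest difference, 0.19 ± 0.074, which did not pass (adjusted p = 0.0749). ATIC (0.070 ± 0.027, adjusted p = 0.0722) passed with DESeq2 (adjusted p = 0.0105). By edgeR, ATIC passed with DESeq2-type size factors (adjusted p = 0.0493), without the labelled libraries (adjusted p = 0.0472) and without dMTS-DELE1 antimycin replicate 1 (adjusted p = 0.039). PFAS went the other way, with a larger fall in dMTS-DELE1 cells, and did not pass in the fit over all libraries. It passed by edgeR without F137S vehicle replicate 4 (-0.11, adjusted p = 0.0259) or F137S antimycin replicate 1 (-0.11, adjusted p = 0.0374).

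Between KO-vector and WT-vector cells edgeR called 0 of 10 differences of response (1.57% of all tested genes, 0.836% higher and 0.729% lower), with IMPDH2 the 1 member at an unadjusted p below 0.05 (-0.053 ± 0.024, adjusted p = 0.334) and 0 called by DESeq2. For DHODH, called in WT-vector but not KO-vector cells, the responses had a difference of 0.13 ± 0.074 (adjusted p = 0.499), so they were not shown to differ. F137S against WT-vector cells also gave 0 calls (1.49% of all tested genes, 0.717% higher and 0.771% lower), with IMPDH2 the 1 gene at an unadjusted p below 0.05, and 0 by DESeq2. F137S against KO-vector cells gave 0 (0%), with 0 at an unadjusted p below 0.05 and 0 by DESeq2, as did the labelled libraries against WT-vector cells (0%).

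The ratio of the neighbours PPAT and PAICS was lower with antimycin, without overlap of libraries, in 4 of 5 lines. The log2 ratio of PPAT to PAICS within a library, a quantity chosen after the values were seen, averaged -2.08 ± 0.017 with antimycin and -1.85 ± 0.038 in vehicle in F137S cells (SD, n = 4 each). In KO-vector cells it averaged -2.06 ± 0.034 with antimycin and -1.84 ± 0.043 in vehicle. In WT-vector cells it averaged -2.11 ± 0.047 with antimycin and -1.95 ± 0.024 in vehicle. In each of these lines every antimycin library had a lower ratio than every vehicle library.

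The change in ratio was -0.23 in F137S cells, -0.20 in the labelled libraries, -0.22 in KO-vector cells and -0.16 in WT-vector cells. These values restate that PPAT fell and PAICS did not pass, and are given as a description with no test. In dMTS-DELE1 cells the ratio averaged -1.89 ± 0.055 with antimycin and -1.81 ± 0.030 in vehicle, a change of -0.080 with overlapping libraries. GENCODE v29 lists 2 pseudogenes named for PPAT and 7 for PAICS, and reads from such near copies could have been lost or split. ADSL shares 18.9% of its exon bases with another gene model on its strand, AL022238.4, and GART 3.55% with SON on the other strand, so part of their counts is uncertain too. Whether counting used strand is not given.

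**Figure D4:**
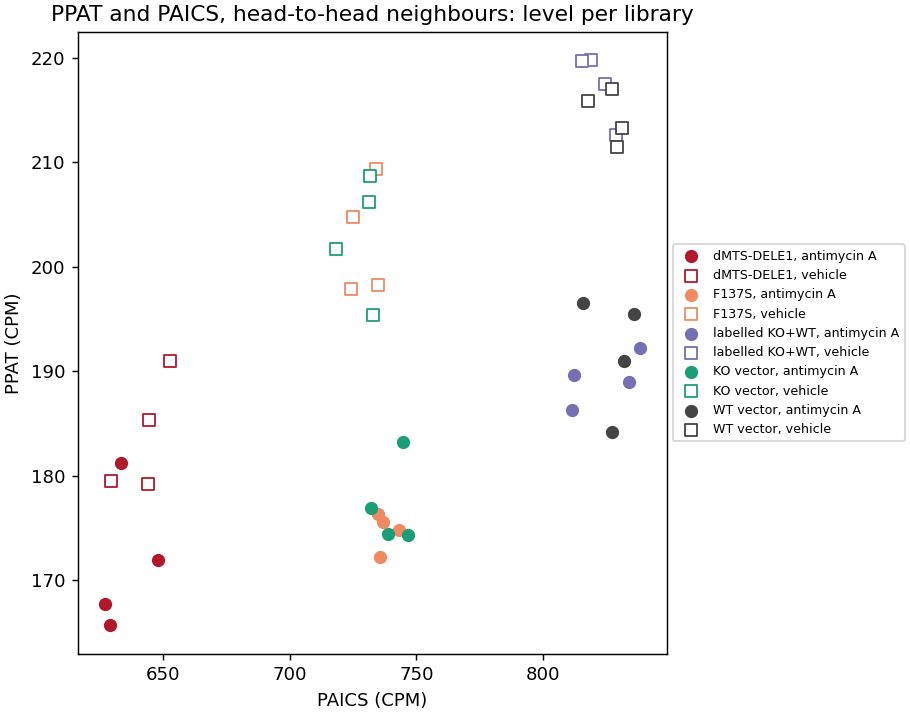
PPAT (y axis, CPM) against PAICS (x axis, CPM) in each of the 40 libraries, filled circles for antimycin A and open squares for vehicle, coloured by line. Within F137S, KO-vector and WT-vector cells the antimycin libraries lie below the vehicle libraries at nearly the same PAICS level, and the lines are displaced along the PAICS axis, from 626.8 CPM in dMTS-DELE1 cells to 838.2 CPM in the labelled libraries.

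Genes around the 10 enzymes were described by lists. Of 7 genes for the other steps from IMP and UTP onward, 5 fell with antimycin in dMTS-DELE1 cells (beside 17.3% of all tested genes), 4 in F137S (24.9%), 5 in KO-vector (24.7%) and 6 in WT-vector cells (26.4%), and 0 rose. IMPDH2, the step from IMP to GTP counted among the 10, rose in all 5 lines. ADSS2, which starts the branch to AMP, gave -0.17 ± 0.022 in dMTS-DELE1, -0.26 ± 0.022 in F137S, -0.23 ± 0.022 in KO-vector and -0.38 ± 0.022 in WT-vector cells. Its fall was smaller in KO-vector than in WT-vector cells (difference of responses 0.16 ± 0.031, adjusted p = 0.00076). CTPS2, which makes CTP, gave -0.20 ± 0.041 in WT-vector cells. IMPDH1, the second gene for the IMPDH2 reaction, named here after its values were seen, fell in WT-vector cells (-0.14 ± 0.036).

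Genes for the supply and use of inputs rose in part. Folate one-carbon metabolism makes and uses the formyl groups that GART and ATIC need. Of its 8 listed genes, 4 rose and 2 fell with antimycin in WT-vector cells. Of all tested genes 25.5% rose and 26.4% fell. The median log2 fold change of the 8 was 0.19, beside 0.0097 for all tested genes. ALDH1L2, a mitochondrial enzyme that oxidises formyl-tetrahydrofolate, rose by 0.44 ± 0.026, and SHMT2, which draws one-carbon units from serine, by 0.34 ± 0.022. MTHFD1, the cytosolic enzyme, gave -0.085 ± 0.018, and MTHFD1L, a mitochondrial formate-producing enzyme, -0.069 ± 0.024. The MTHFD1L call was lost without the labelled libraries (adjusted p = 0.0576) and without WT-vector vehicle replicate 1 or 3 or antimycin replicate 3 or 4 (adjusted p = 0.0739 to 0.211). The response of ALDH1L2 was smaller in KO-vector than in WT-vector cells (difference -0.18 ± 0.037, adjusted p = 0.00151), as was that of MTHFD2 (-0.15 ± 0.026, adjusted p = 7.08e-05). Among 10 genes of aspartate and glutamine supply and use, 4 rose and 3 fell, beside the same shares of all tested genes. ASNS, which turns aspartate into asparagine, rose by 1.47 ± 0.14 and GOT1, which interconverts aspartate and oxaloacetate in the cytosol, by 0.21 ± 0.031. SLC25A12 and its paralogue SLC25A13 gave -0.34 ± 0.030 and -0.29 ± 0.027.

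Salvage and deoxynucleotide genes were mixed. Of 10 salvage genes 4 rose and 3 fell in WT-vector cells. Each count of this paragraph stands beside 25.5% of all tested genes that rose and 26.4% that fell. Counts from so few genes are a description only. UPP1, which cleaves uridine, rose (0.36 ± 0.095), as did the thymidine kinase TK1 (0.24 ± 0.031), and UCK2 and ADK, kinases of uridine and adenosine, fell (-0.16 ± 0.023 and -0.16 ± 0.036). Of 7 deoxynucleotide genes 1 rose, RRM2B (0.23 ± 0.043), a subunit of ribonucleotide reductase, and 2 fell, RRM2 (-0.11 ± 0.020), its counterpart in dividing cells, and DTYMK (-0.080 ± 0.032), thymidylate kinase. The DTYMK call was lost in 6 of 8 fits with 1 WT-vector library left out, all but vehicle replicate 4 and antimycin replicate 3 (adjusted p = 0.0671 to 0.295), and with DESeq2, DESeq2-type size factors, no filter or no labelled libraries (adjusted p = 0.0525 to 0.0764). Of 4 PRPP supply genes 1 rose, PRPS1 (0.072 ± 0.019), and 1 fell, PRPS2 (-0.099 ± 0.028). Of 8 tested genes for other dehydrogenases that reduce ubiquinone, as DHODH does, 4 rose, ETFDH (0.18 ± 0.041) and SDHA (0.12 ± 0.023) the most, and 1 fell, CHDH (-0.38 ± 0.043).

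Between the lines, the lists did not all follow the 10 enzymes. Counts for KO-vector against WT-vector cells stand beside 22.7% of all tested genes higher and 25.6% lower. In KO-vector against WT-vector cells in vehicle, 0 of 8 folate genes were higher and 6 lower (median -0.16), led by ALDH1L2 (-0.59 ± 0.027) and MTHFD2L (-0.52 ± 0.071). Of 10 aspartate and glutamine genes 0 were higher and 8 lower (median -0.14), led by SLC25A12 itself and ASNS (-0.37 ± 0.15, adjusted p = 0.0393). The ASNS call was lost with 5 of the alternatives, among them DESeq2 and counts halved (adjusted p = 0.0522 to 0.0746), and without WT-vector vehicle replicate 2 or 4 or KO-vector vehicle replicate 1, 2 or 4 (adjusted p = 0.0678 to 0.122). The final steps split, with CTPS2 (0.19 ± 0.041) and CTPS1 (0.18 ± 0.019) higher in KO-vector cells and ADSS2 (-0.18 ± 0.022) and IMPDH1 (-0.16 ± 0.036) lower. PRPS1 was higher (0.24 ± 0.019) and PRPS2 lower (-0.23 ± 0.028). SDHB (0.26 ± 0.026) and SDHA (0.16 ± 0.023) were higher and SDHD (-0.17 ± 0.030) lower, all subunits of complex II.

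In dMTS-DELE1 against F137S cells in vehicle, 4 of 8 folate genes were higher and 2 lower (of all tested genes 17.7% higher and 24.1% lower). ALDH1L2 (0.87 ± 0.027) and MTHFD2 (0.38 ± 0.018) led the higher ones, and SHMT1 (-0.23 ± 0.030) and MTHFD1 (-0.17 ± 0.018) were lower. SLC25A12 (1.00 ± 0.019), ASNS (0.62 ± 0.15) and UPP1 (0.80 ± 0.095) were higher. GLUL (-0.26 ± 0.017), glutamine synthetase, and the salvage gene APRT (-0.38 ± 0.038) were lower. Of the 8 tested ubiquinone-reducing dehydrogenase genes 6 were lower, SDHA (-0.20 ± 0.023) and CHDH (-0.16 ± 0.043) the most, and 1 was higher, GPD2 (0.11 ± 0.036), a call lost without dMTS-DELE1 vehicle replicate 3 (adjusted p = 0.129). Of the 12 replication and proliferation genes 10 were lower and 2 higher (median -0.11, beside -0.021 for all tested genes), with CCNE1 (-0.22 ± 0.043) and MCM6 (-0.19 ± 0.019) the lowest. In KO-vector against WT-vector cells 9 were lower and 3 higher (25.6% and 22.7% of all tested genes). The median there was -0.10, beside -0.0085, with CCNE1 (-0.35 ± 0.042) and CDT1 (-0.30 ± 0.049) the lowest. Their part in the levels of the synthesis enzymes was not tested.

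MYC, a transcription factor known to raise nucleotide synthesis genes, was lower with antimycin in all 5 lines. It stood at 98.9 ± 7.50 CPM with antimycin and 173 ± 4.72 CPM in vehicle in WT-vector cells (SD, n = 4 each). The log2 fold change with antimycin was -0.51 ± 0.040 in dMTS-DELE1, -0.98 ± 0.040 in F137S, -0.75 ± 0.038 in labelled, -0.98 ± 0.040 in KO-vector and -0.81 ± 0.038 in WT-vector cells. Of the 10 members, 5 fell in all 5 lines and DHODH fell in 3. CAD and IMPDH2 rose in all 5, and GART and PAICS passed in none. MYC was lower in KO-vector than in WT-vector cells (-0.70 ± 0.038 in vehicle), and in dMTS-DELE1 against F137S cells it was lower in vehicle (-0.26 ± 0.039) and higher under antimycin (0.21 ± 0.042). PFAS and PAICS were lower in dMTS-DELE1 cells in both conditions. The part of MYC in the levels of the 10 genes was not tested. ATF4, the transcription factor of the integrated stress response, rose with antimycin by 0.35 ± 0.017 in WT-vector and 0.070 ± 0.017 in KO-vector cells.

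**Figure D5:**
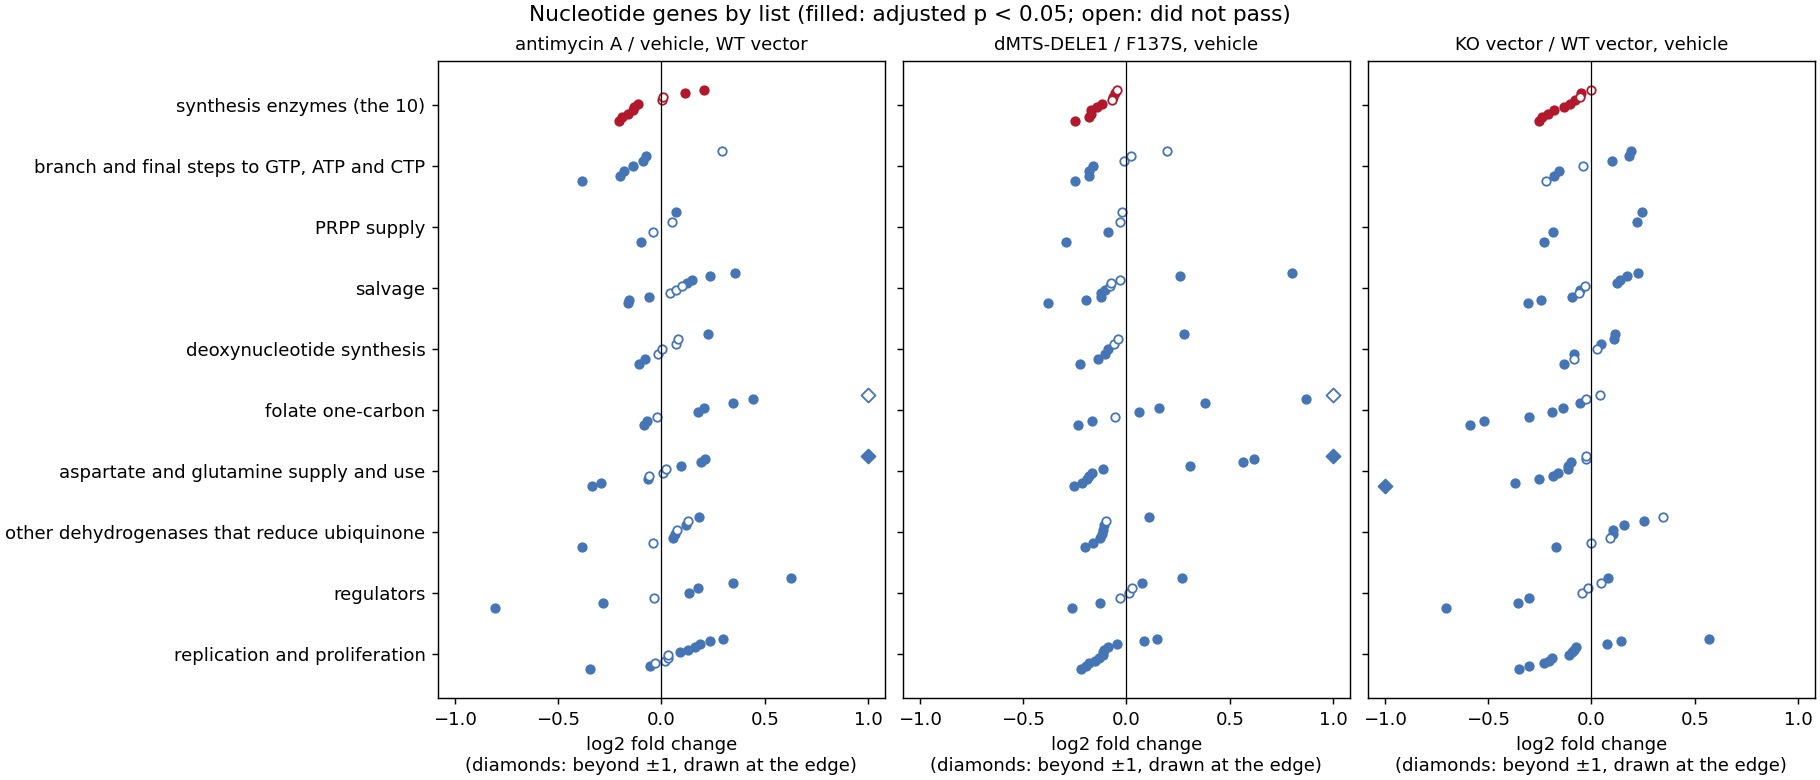
Log2 fold change (x axis) of each tested gene in the 10 synthesis enzymes (red) and 9 lists around them (blue), in 3 contrasts; filled points passed an adjusted p of 0.05, open points did not, and diamonds at the edge lie beyond ±1. The final steps to GTP, ATP and CTP hold 6 genes that fell with antimycin in WT-vector cells, and 8 of the 10 synthesis enzymes are lower in each of the 2 line contrasts.

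The 10 genes varied together only in part over the 10 group means of log2 CPM, which share their libraries and normalization. The closest pairs by Pearson correlation were UMPS and ATIC (0.98), CAD and IMPDH2 (0.98), PPAT and ATIC (0.95) and PFAS and PAICS (0.94). The lowest were ADSL with IMPDH2 (-0.39) and with CAD (-0.30). CAD and IMPDH2, the 2 genes that rose with antimycin, correlated weakly with UMPS, at 0.20 for CAD and 0.06 for IMPDH2.

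The genes most like the mean of the 10 over these 10 group means were PREP, ELAC2, NIBAN2, ALDH18A1 and LDHA (r = 0.9944 to 0.9971). PREP averaged 48.2 ± 0.910 CPM in dMTS-DELE1, 58.1 ± 2.40 in F137S, 59.9 ± 2.00 in KO-vector and 73.1 ± 2.43 in WT-vector cells in vehicle, which is the order PFAS had. Most like DHODH were DENND2B, AP3B1, RPL41, KIAA1586 and ETS2 (r = 0.9664 to 0.9804). With 10 points and 16739 genes to choose from, such values describe these groups only.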

How the data were processed

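RNA of 40 HEK293T libraries was measured. Per the labels' protocols, poly(A) RNA was primed with random hexamers and read as pairs of 150 bases. The deposited table holds raw counts per gene symbol, made by the authors without normalization. HISAT2 2.1.0, featureCounts 2.0.6 and hg38 are named in the submitters' processing notes, with settings not given. Library totals ran from 30730335 to 31965438. Among counts from 1 to 20, 55.1% to 58.7% per library were even, so some fragments may be counted doubly, and counts were also halved as an alternative.

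Counts were filtered with filterByExpr (16739 genes), scaled by TMM and fitted with edgeR 4.0.16 in R 4.3.3 (robust quasi-likelihood, 1 coefficient per group, all 40 libraries), with Benjamini-Hochberg adjustment over all tested genes in each of 20 contrasts. CPM is per TMM-scaled total over the tested genes, with a prior count of 2 for logarithms. CPM of kidney and neuronal markers, and their sums, is instead per unscaled total over all gene symbols. The fit was unpaired: the correlation of residuals between equally numbered libraries of different groups averaged -0.0010 (-0.059 to 0.051 over 180 pairs, 0 above 0.1). The procedure was tested on simulated data. Alternatives were DESeq2 1.42.0, other size factors, no filter, the replicate block, the compared groups alone, and leaving out each library, the labelled libraries or the transgenes. The 10 members and all lists were chosen with earlier results of these data known. Named genes were drawn from the members, from up to 2 called genes per direction, list and comparison with the largest log2 fold changes, and from the 5 genes nearest to each of 2 patterns (mean log2 CPM of at least 4); not every gene this allows is named. Sequences came from RefSeq promoter windows (GRCh38.p14), and gene positions and exon lengths from GENCODE v29.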

Additional observations from a re-analysis of the deposited data

Results flagged for a closer look

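Of 100 sets of 4 libraries (10 genes in 10 groups), 4 held a library that stood apart from the other three by more than Dixon's critical gap at 95%. Chance gives about 1 in 20 such sets. PFAS was lowest in KO-vector vehicle replicate 1, at 177.1 CPM, against 184.4 to 185.1 in the others. PAICS was lowest in KO-vector vehicle replicate 3, at 718.1 CPM, against 731.1 to 732.9. ADSL was highest in F137S vehicle replicate 4, at 227.7 CPM, against 224.2 to 224.5. IMPDH2 was lowest in WT-vector antimycin replicate 4, at 636.5 CPM, against 648.4 to 650.0. No group had more than 1 such gene other than KO-vector vehicle.

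The response of PPAT to antimycin was called different between dMTS-DELE1 and F137S cells, by 0.1146 on the log2 scale (edgeR adjusted p = 0.0194). The call was lost in a fit of the compared groups alone (0.0957, adjusted p = 0.121) and in 11 of 16 fits with 1 library left out, down to 0.067 without dMTS-DELE1 antimycin replicate 3 (adjusted p = 0.228).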

How the results depend on the processing

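Of the 20 counts of members called, 19 stayed within 1.5 times under every alternative run. The exception was the difference of antimycin response between dMTS-DELE1 and F137S cells, with 1 member: it was 2 with DESeq2-type size factors, without the labelled libraries and with the DESeq2 Wald test, 0 in a fit of the compared groups alone, and 0 to 2 with 1 library left out. The cause was not tested. No called log2 fold change of a member reversed under any alternative. With the replicate number as a block, this count stayed at 1, and no member's call changed in any of the 20 comparisons. Over all genes, 14 were called between F137S and KO-vector cells in vehicle, 6 with counts halved and 23 with DESeq2. Under antimycin 19 were called, and 32 with DESeq2. Among differences of response over all genes, KO-vector minus WT-vector cells gave 140 higher and 122 lower, against 109 and 149 with DESeq2-type size factors, 86 and 138 with no filter and 75 and 168 without the labelled libraries. F137S minus WT-vector cells gave 120 higher and 129 lower, against 72 and 151 with no filter and 66 and 165 without the labelled libraries. Depth limits DHODH most: with 728 to 1053 counts per library its antimycin responses had standard errors of 0.0518 to 0.0527 on the log2 scale, against 0.016 for PAICS.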
